A study of Homo sapiens with 16 samples.

Results

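The Wnt ligands and the proteins that release and receive them form a set of 36 protein-coding genes, out of 19404 protein-coding genes in the count files. Its members are defined by gene name and were picked with earlier results of these data known. It holds the 19 WNT ligand genes, 2 genes needed to release ligands (PORCN and WLS), the 10 Frizzled receptor genes FZD1 to FZD10, the LRP co-receptor genes LRP5 and LRP6, and the 3 alternative receptor genes ROR1, ROR2 and RYK. RNA-Seq libraries came from MDA-MB-231 and MDA-MB-436, established lines of triple-negative breast cancer (TNBC) with a mesenchymal character, in which all sublines carried the stably integrated 7TGP vector (Tcf sites that drive eGFP, with a puromycin resistance gene). Cells had been sorted by eGFP into reporter-negative (7TGP-NEG) and reporter-positive (7TGP-POS) sublines, grown in low serum (0.5% FBS, harvested on day 3) or standard serum (10% FBS, day 6), with 2 replicates in each of the 8 groups and 16 libraries in all. Each subline is 1 sorted population of 1 line, so the tests measure the spread between replicate cultures of these populations, and eGFP-positive cells did not make up the whole of a 7TGP-POS subline. According to the methods, low serum RNA was depleted of ribosomal RNA whereas standard serum RNA was selected for poly(A), although the labels name a single kit, so the serum conditions also differ in days of culture and library preparation, effects that cannot be told apart, and members were not compared between them.

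WNT ligands are secreted lipid-modified glycoproteins. PORCN attaches the lipid in the endoplasmic reticulum, and WLS carries the modified ligand to the cell surface. In canonical signaling a ligand bridges a Frizzled receptor and LRP5 or LRP6, which stabilizes β-catenin and lets it activate genes with Tcf/Lef factors, the step that the 7TGP reporter reads. Other ligands, of which WNT5A is the best known, act largely without β-catenin through Frizzleds together with ROR1, ROR2 or RYK, on cell polarity and movement. In mesenchymal breast cancer cells both branches have been studied in relation to invasion.

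Library totals ran from 27918418 to 32667756 counts in low serum and from 31827130 to 46044073 counts in standard serum. Mesenchymal markers were present, with VIM at 369 to 3882 TPM, FN1 at 23.05 to 356 TPM and ZEB1 at 10.98 to 49.7 TPM over the 16 libraries, whereas the mesenchymal cadherin CDH2 was at 0.15 to 0.66 TPM in MDA-MB-231 and at 100.1 to 187 TPM in MDA-MB-436. The epithelial cadherin CDH1 stayed at or under 0.15 TPM and EPCAM was at 1.67 to 12.1 TPM. ESR1 and PGR stayed at or under 0.20 TPM, and ERBB2 was at 16.9 to 27.8 TPM. The leukocyte marker PTPRC was at 0.53 to 4.04 TPM in MDA-MB-231 and at 0.03 to 0.12 TPM in MDA-MB-436. The endothelial marker PECAM1 was not analysed here.

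Because the reporter reads Tcf binding, the RefSeq promoter windows of the members (GRCh38.p14, 250 bases before to 50 after each start) were searched for ATCAAAG, the core of the Tcf site in the vector, on both strands. The table held 32 windows for 27 of the 36 members. None of the 32 windows contained these letters, which occurred in 919 of all 35116 windows (2.62%). No match says only that these letters are absent from this window. At that share, 32 windows are too few for the absence of a match to set the members apart. The member windows were rich in CpG, with a median of 25 CG dinucleotides in the 250 bases before the start against 11 over all windows. The bases before the starts of ROR1, ROR2 and WNT5A are shown because both ROR genes and their ligand WNT5A rose with the reporter in MDA-MB-436, written 5′ to 3′ with each CG in capitals.
ROR1 (chr1:63773767-63774016, + strand): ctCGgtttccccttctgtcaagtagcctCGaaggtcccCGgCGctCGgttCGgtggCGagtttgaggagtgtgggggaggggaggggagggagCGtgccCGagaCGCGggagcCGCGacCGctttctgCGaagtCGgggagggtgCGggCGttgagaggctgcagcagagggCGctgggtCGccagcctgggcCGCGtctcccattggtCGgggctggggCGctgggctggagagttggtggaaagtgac
ROR2 (chr9:91950229-91950478, - strand): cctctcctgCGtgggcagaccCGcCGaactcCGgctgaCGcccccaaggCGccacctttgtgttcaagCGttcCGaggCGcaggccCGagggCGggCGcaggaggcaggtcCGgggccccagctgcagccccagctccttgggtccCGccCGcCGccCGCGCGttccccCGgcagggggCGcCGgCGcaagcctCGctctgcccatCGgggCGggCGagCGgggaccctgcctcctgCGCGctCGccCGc
WNT5A, distal start (chr3:55487307-55487556, - strand): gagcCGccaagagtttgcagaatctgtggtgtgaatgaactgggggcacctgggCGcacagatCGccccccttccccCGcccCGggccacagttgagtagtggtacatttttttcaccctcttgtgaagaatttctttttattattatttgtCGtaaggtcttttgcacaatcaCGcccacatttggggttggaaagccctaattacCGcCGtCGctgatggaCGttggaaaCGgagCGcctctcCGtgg
WNT5A, proximal start (chr3:55481399-55481648, - strand): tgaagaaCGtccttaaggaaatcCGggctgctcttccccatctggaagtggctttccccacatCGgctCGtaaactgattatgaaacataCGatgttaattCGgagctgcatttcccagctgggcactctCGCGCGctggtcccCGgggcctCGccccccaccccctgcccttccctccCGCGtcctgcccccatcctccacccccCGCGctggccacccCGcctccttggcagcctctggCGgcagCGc

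Transcript levels between genes were compared as TPM, the authors' measure that corrects for gene length, and are given as the mean ± SD of 2 replicates. Of the 36 members, 28 reached a mean of 1 TPM in at least 1 group. MDA-MB-231 held 19 and 17 such members in low serum (7TGP-NEG and 7TGP-POS) and 21 and 17 in standard serum, and MDA-MB-436 held 27 and 25 in low serum, with 26 and 24 in standard serum. WNT1, WNT2, WNT8A, WNT8B, WNT9B and WNT16 had at most 3 counts in any library and were not tested. The other 30 members were tested in both serum conditions, 13 ligands and all 17 genes of the other roles. The libraries of MDA-MB-231 in standard serum held no count of WNT3A, WNT6, WNT7A, FZD9, FZD10 or ROR2, and at the depth used a count of 0 in a library allows up to 3 counts.

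Among the ligands of MDA-MB-231, the highest were WNT7B, a ligand that can signal through β-catenin, at 12.96 to 33.5 TPM, and WNT5B, a relative of WNT5A, at 10.8 to 19.5 TPM. In MDA-MB-436 the leading ligands included WNT5A, at 10.5 to 30.2 TPM, and WNT3, a canonical ligand, at 9.63 to 14.2 TPM. WNT5A led in 3 of the 4 MDA-MB-436 groups, and in standard serum 7TGP-NEG WNT3 (11.3 ± 1.10 TPM) stood beside WNT5A (10.7 ± 0.198 TPM). In low serum 7TGP-POS, WNT6 (10.7 ± 0.127 TPM), WNT3 (10.1 ± 0.672 TPM) and WNT7B (10.04 ± 0.650 TPM) had overlapping ranges behind WNT5A. The summed ligand TPM of a library was 42.4 to 54.2 in MDA-MB-231 and 49.96 to 84.4 in MDA-MB-436. The carrier WLS was above each ligand in every library, at 94.03 to 205 TPM in MDA-MB-231 and 84.98 to 185 TPM in MDA-MB-436, and PORCN was at 11.5 to 37.2 and 7.02 to 28.4 TPM. Among the receptors, LRP5 was highest in MDA-MB-231, at 112 to 244 TPM, while LRP6 was higher than LRP5 in each MDA-MB-436 library, at 40.2 to 77.8 against 21.4 to 38.7 TPM. RYK, an atypical receptor kinase, was at 15.1 to 28.3 TPM in MDA-MB-231 and 35.1 to 56.2 TPM in MDA-MB-436.

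**Figure D1:**
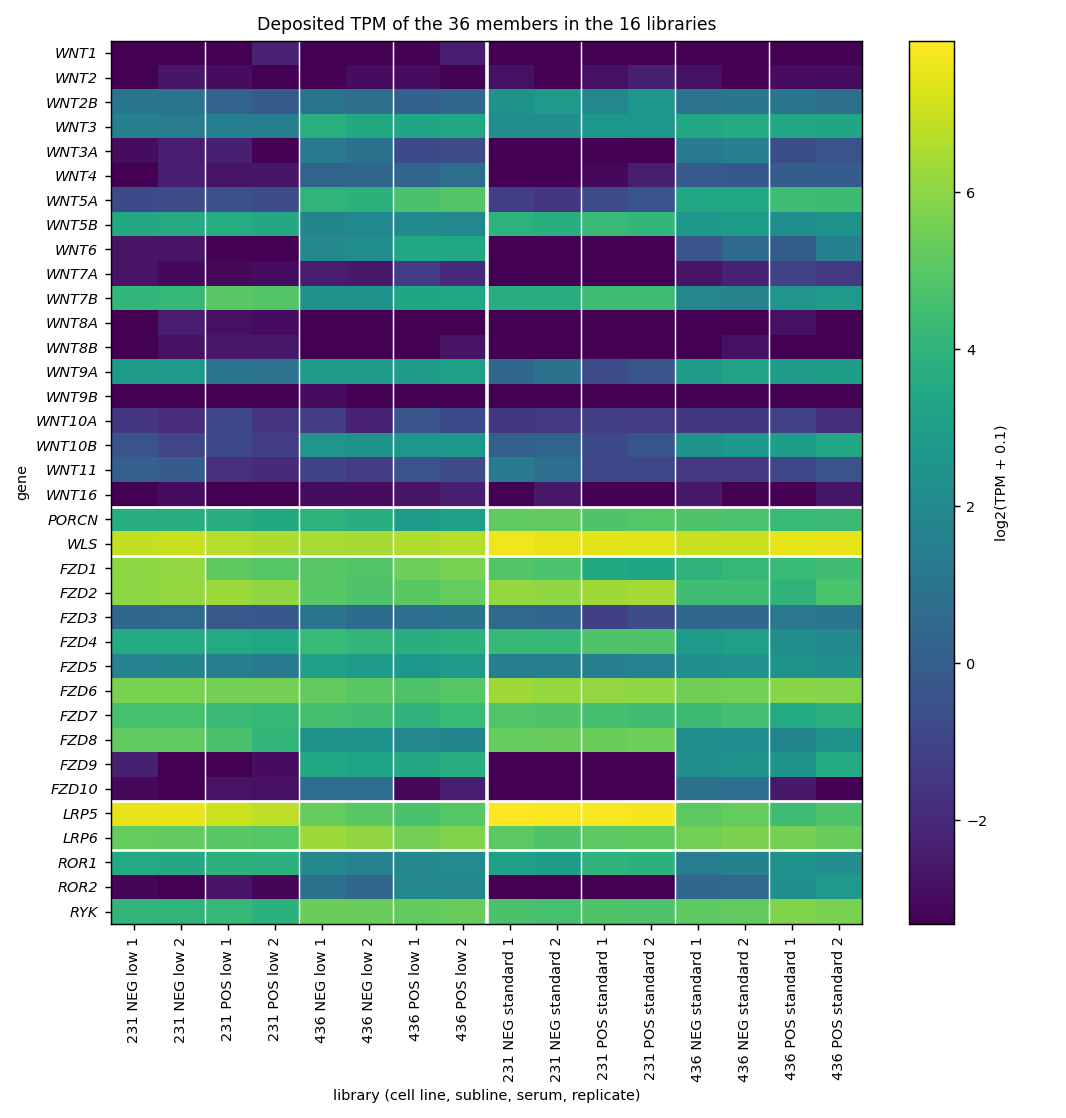
Deposited TPM of the 36 members, as log2(TPM + 0.1), with 1 row per gene ordered by role and 1 column per library (231 and 436 stand for the cell lines, followed by subline, serum and replicate). WLS and LRP5 are the brightest rows in MDA-MB-231, and WNT3A, WNT6, FZD9, FZD10 and ROR2 are at or near 0 in MDA-MB-231 and brighter in some or all MDA-MB-436 groups.

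The main comparison asked which members differed between reporter-positive and reporter-negative sublines of the same line. A member passed when its adjusted p from edgeR's quasi-likelihood test was under 0.05, and was called when its absolute log2 fold change was also at least 1. In low serum MDA-MB-231, 14 of the 30 tested members passed the adjusted p alone, 5 of them higher and 9 lower in 7TGP-POS. Among all genes tested, 38.9% passed, 19% higher and 19.9% lower. With the fold threshold added, 3 members were called, 1 higher and 2 lower, against 5.9% of all genes (3.5% higher and 2.4% lower). In standard serum MDA-MB-231, 14 of the 30 tested members passed the adjusted p alone, 6 of them higher and 8 lower in 7TGP-POS. Among all genes tested, 33% passed, 16.8% higher and 16.2% lower. With the fold threshold added, 5 members were called, 1 higher and 4 lower, against 7.69% of all genes (4.96% higher and 2.72% lower). The members called in low serum were WNT7B, which was higher in 7TGP-POS, and WNT9A and WNT11, which were lower. Those called in standard serum were WNT5A, which was higher, and WNT9A, WNT11, FZD1 and FZD3, which were lower. In these bulk RNA samples, fewer cells that make a transcript and less of it per cell cannot be told apart.

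In low serum MDA-MB-436, 22 of the 30 tested members passed the adjusted p alone, 15 of them higher and 7 lower in 7TGP-POS. Among all genes tested, 52% passed, 26.6% higher and 25.3% lower. With the fold threshold added, 8 members were called, 6 higher and 2 lower, against 10.5% of all genes (6.52% higher and 4.03% lower). In standard serum MDA-MB-436, 17 of the 30 tested members passed the adjusted p alone, 10 of them higher and 7 lower in 7TGP-POS. Among all genes tested, 49.5% passed, 26.1% higher and 23.4% lower. With the fold threshold added, 4 members were called, 2 higher and 2 lower, against 12.5% of all genes (6.47% higher and 6.06% lower). In low serum WNT5A, WNT6, WNT7A, WNT7B, WNT10A and ROR2 were called higher and WNT3A and FZD10 lower. WNT7A, ROR2, WNT3A and FZD10 were called in the same directions in standard serum. The medians that follow include genes with few counts, and the members and all genes were not matched for level. Whether members changed more than genes of like level was not tested. The median absolute log2 fold change in low serum was 0.45 over the 29 members with more than 3 counts in a library of each group and 0.28 over the 14374 such genes tested for MDA-MB-436, and 0.32 over the 24 members with more than 3 counts in a library of each group and 0.21 over the 13977 such genes tested for MDA-MB-231. In standard serum it was 0.55 over the 29 members with more than 3 counts in a library of each group and 0.34 over the 14015 such genes tested for MDA-MB-436, and 0.34 over the 23 members with more than 3 counts in a library of each group and 0.24 over the 13273 such genes tested for MDA-MB-231.

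**Figure D2:**
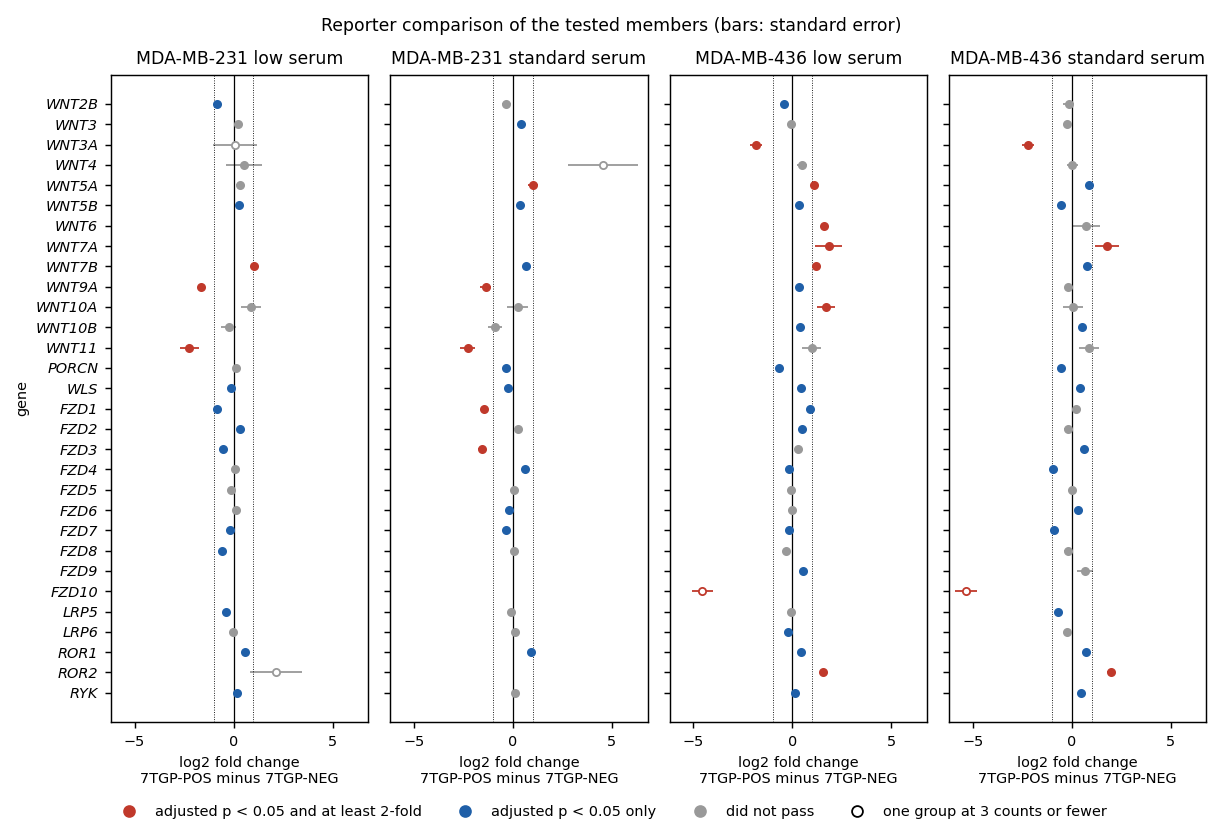
Log2 fold change (7TGP-POS minus 7TGP-NEG, bars are standard errors) of the tested members in the 4 reporter comparisons, with red points called, blue points past the adjusted p only, grey points not passed, and open points where 1 group held 3 counts or fewer in each library, whose fitted value is no bound. Members with both groups at 3 counts or fewer are left out, and the dotted lines mark the fold threshold of 1. WNT7B and ROR1 lie above 0 and past the adjusted p in all 4 comparisons, and FZD7 lies below 0 and past it.

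WNT7B (hg19 chr22:46316246-46373042) was the only ligand that passed the adjusted p as higher in 7TGP-POS in all 4 comparisons. In low serum MDA-MB-231, its CPM (counts scaled to the TMM-normalised library size) were 40.4 and 41.8 in 7TGP-NEG and 83.04 and 86.3 in 7TGP-POS, a log2 fold change of 1.04 ± 0.06, adjusted p = 2.3e-17. The replicates did not overlap, and the same held in standard serum, with 19.4 and 20.8 against 32.1 and 31.9 CPM (0.67 ± 0.10, adjusted p = 4.3e-05). In MDA-MB-436 WNT7B went from 8.63 and 9.99 to 21.2 and 20.6 CPM in low serum (1.17 ± 0.08, adjusted p = 3.0e-15). In standard serum the values were 4.93 and 4.27 against 7.38 and 8.28 (0.77 ± 0.12, adjusted p = 3.3e-05). The difference of WNT7B between the lines was -0.13 ± 0.11, adjusted p = 0.34 in low serum and -0.10 ± 0.16, adjusted p = 0.67 in standard serum, so none was detected. With limma on log2(TPM + 1) and log2(TPM + 0.1), the low serum values of WNT7B were 0.81 and 0.84 in MDA-MB-231 and 0.81 and 0.91 in MDA-MB-436, which passed the adjusted p but not the fold threshold.

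WNT5A (chr3:55499743-55524567), the main ligand of the ROR receptors, was low in MDA-MB-231, at 0.240 to 0.660 TPM, and the leading or second ligand in MDA-MB-436. MDA-MB-436 7TGP-NEG held 36.6 and 36.2 CPM in low serum and 7TGP-POS held 76.8 and 77.9 (1.09 ± 0.06, adjusted p = 2.0e-18). In standard serum the levels were 18.97 and 18.98 against 35.7 and 34.6 CPM (0.89 ± 0.10, adjusted p = 8.0e-07). Replicates of MDA-MB-436 differed little and the sublines were well apart. In MDA-MB-231 the levels were 1.48 and 1.51 against 1.95 and 1.84 CPM in low serum, which did not pass (0.34 ± 0.20, adjusted p = 0.22). In standard serum, 0.626 and 0.491 against 0.977 and 1.28 CPM were called (1.01 ± 0.25, adjusted p = 0.0038). That call rests on 14 to 43 counts per library, and the log2 fold change fell to 0.79 without MDA-MB-231 7TGP-POS replicate 2 (adjusted p = 0.10) and to 0.85 without 7TGP-NEG replicate 2 (adjusted p = 0.051). An antisense gene, WNT5A-AS1, overlaps WNT5A, and the strand used in counting is not given in the sources used here. The related ligand WNT5B rose in MDA-MB-231, from 21.6 and 22.6 to 26.5 and 26.9 CPM in low serum (0.27 ± 0.09, adjusted p = 0.0093) and from 19.5 and 17.2 to 24.6 and 22.1 in standard serum (0.34 ± 0.11, adjusted p = 0.027). In MDA-MB-436 WNT5B was higher in 7TGP-POS in low serum (0.36 ± 0.12, adjusted p = 0.014) and lower in standard serum (-0.55 ± 0.13, adjusted p = 0.0017). The higher WNT5B values no longer passed in MDA-MB-231 without 7TGP-NEG replicate 1 (0.24, adjusted p = 0.11) in low serum, and without 7TGP-NEG replicate 2 (0.26, adjusted p = 0.23) or 7TGP-POS replicate 1 (0.27, adjusted p = 0.19) in standard serum. In low serum MDA-MB-436, WNT5B did not pass without 7TGP-NEG replicate 1 (0.25, adjusted p = 0.20) or 7TGP-POS replicate 1 (0.16, adjusted p = 0.41). The call of WNT5A in low serum MDA-MB-436 was also short of the fold threshold with limma on TPM, at 0.80 and 0.84.

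WNT9A (chr1:228106357-228135633) and WNT11 (chr11:75897369-75921780), the latter a ligand known for acting on cell movement in the embryo, were the ligands that fell in MDA-MB-231 7TGP-POS in both serum conditions. WNT9A went from 12.5 and 12.2 to 3.75 and 4.14 CPM in low serum (-1.65 ± 0.13, adjusted p = 3.5e-14) and from 1.44 and 2.17 to 0.586 and 0.775 CPM in standard serum (-1.39 ± 0.27, adjusted p = 5.7e-04). WNT11 was sparse, with 30 and 25 counts in 7TGP-NEG and 6 and 5 in 7TGP-POS in low serum (-2.23 ± 0.46, adjusted p = 1.2e-04). In standard serum it had 55 and 34 against 9 and 10 counts (-2.30 ± 0.37, adjusted p = 8.2e-05). Neither gene overlapped between the sublines of MDA-MB-231. In MDA-MB-436 WNT9A was higher in 7TGP-POS, at 9.65 and 10.7 against 12.96 and 12.3 CPM in low serum (0.31 ± 0.10, adjusted p = 0.010) and did not pass in standard serum (-0.18 ± 0.15, adjusted p = 0.34). The low serum difference of WNT9A in MDA-MB-436 no longer passed without 7TGP-NEG replicate 1 (0.23, adjusted p = 0.16) or 7TGP-POS replicate 1 (0.23, adjusted p = 0.15). On log2(TPM + 1) the values of WNT9A in standard serum and WNT11 in low serum MDA-MB-231 were -0.66 and -0.72, short of the fold threshold. WNT11 in MDA-MB-436 gave 10 and 7 against 20 and 13 counts in low serum, which did not pass (0.98 ± 0.47, adjusted p = 0.078). WNT2B, whose gene overlaps ST7L, was lower in 7TGP-POS in low serum in both lines, at -0.85 ± 0.12, adjusted p = 2.7e-07 in MDA-MB-231 and -0.45 ± 0.13, adjusted p = 0.0027 in MDA-MB-436. It did not pass in standard serum, where the replicates of MDA-MB-231 7TGP-POS stood at 13.8 and 21.9 CPM. The canonical ligand WNT3 passed in 1 comparison, standard serum MDA-MB-231 (0.40 ± 0.13, adjusted p = 0.020), and not without 7TGP-NEG replicate 1 (0.39, adjusted p = 0.11), 7TGP-NEG replicate 2 (0.42, adjusted p = 0.078) or 7TGP-POS replicate 1 (0.36, adjusted p = 0.099).

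Several ligands were detected in MDA-MB-436 but hardly or not in MDA-MB-231. WNT3A (chr1:228194699-228248972), a classical canonical ligand, was lower in MDA-MB-436 7TGP-POS, with 71 and 51 against 18 and 15 counts in low serum (-1.85 ± 0.32, adjusted p = 3.8e-06) and 67 and 89 against 20 and 19 in standard serum (-2.22 ± 0.29, adjusted p = 9.9e-06). WNT6 (chr2:219724528-219738955) went the other way in low serum, from 68 and 75 to 240 and 189 counts (1.61 ± 0.17, adjusted p = 1.0e-10). In standard serum its replicates spread widely, with 11 and 25 against 19 and 49 counts, and it did not pass (0.72 ± 0.69, adjusted p = 0.45). WNT10A lies 6.6 kb from WNT6 on the same strand and had 11 and 4 against 31 and 17 counts in low serum (1.69 ± 0.47, adjusted p = 0.0024). Without MDA-MB-436 7TGP-NEG replicate 2 the adjusted p of WNT10A was 0.054, and without 7TGP-POS replicate 1 it was 0.099. WNT10B, a canonical ligand, was slightly higher in MDA-MB-436 7TGP-POS, from 4.94 and 5.01 to 6.73 and 6.36 CPM in low serum (0.40 ± 0.15, adjusted p = 0.020) and from 3.71 and 4.32 to 5.08 and 6.70 in standard serum (0.54 ± 0.18, adjusted p = 0.016). WNT10B no longer passed in low serum without each of the 4 libraries in turn (adjusted p from 0.058 to 0.17), nor in standard serum without 7TGP-NEG replicate 1 (0.43, adjusted p = 0.18), 7TGP-NEG replicate 2 (0.65, adjusted p = 0.054) or 7TGP-POS replicate 2 (0.33, adjusted p = 0.17). WNT7A was called in both serum conditions of MDA-MB-436 on few counts, 4 and 3 against 18 and 7 in low serum (1.82 ± 0.67, adjusted p = 0.021) and 2 and 6 against 21 and 12 in standard serum (1.78 ± 0.60, adjusted p = 0.023). Its adjusted p rose to 0.080, 0.090 and 0.40 without low serum 7TGP-NEG replicate 1, 7TGP-NEG replicate 2 or 7TGP-POS replicate 1. In standard serum it rose to 0.15 without 7TGP-POS replicate 1 and to 0.17 without 7TGP-NEG replicate 1. WNT4 did not pass in any reporter comparison, although MDA-MB-436 held it at 0.770 to 1.56 TPM. It had 0 and 0 counts against 1 and 4 in standard serum MDA-MB-231, and was called there without 7TGP-POS replicate 1 (adjusted p = 0.040).

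**Figure D3:**
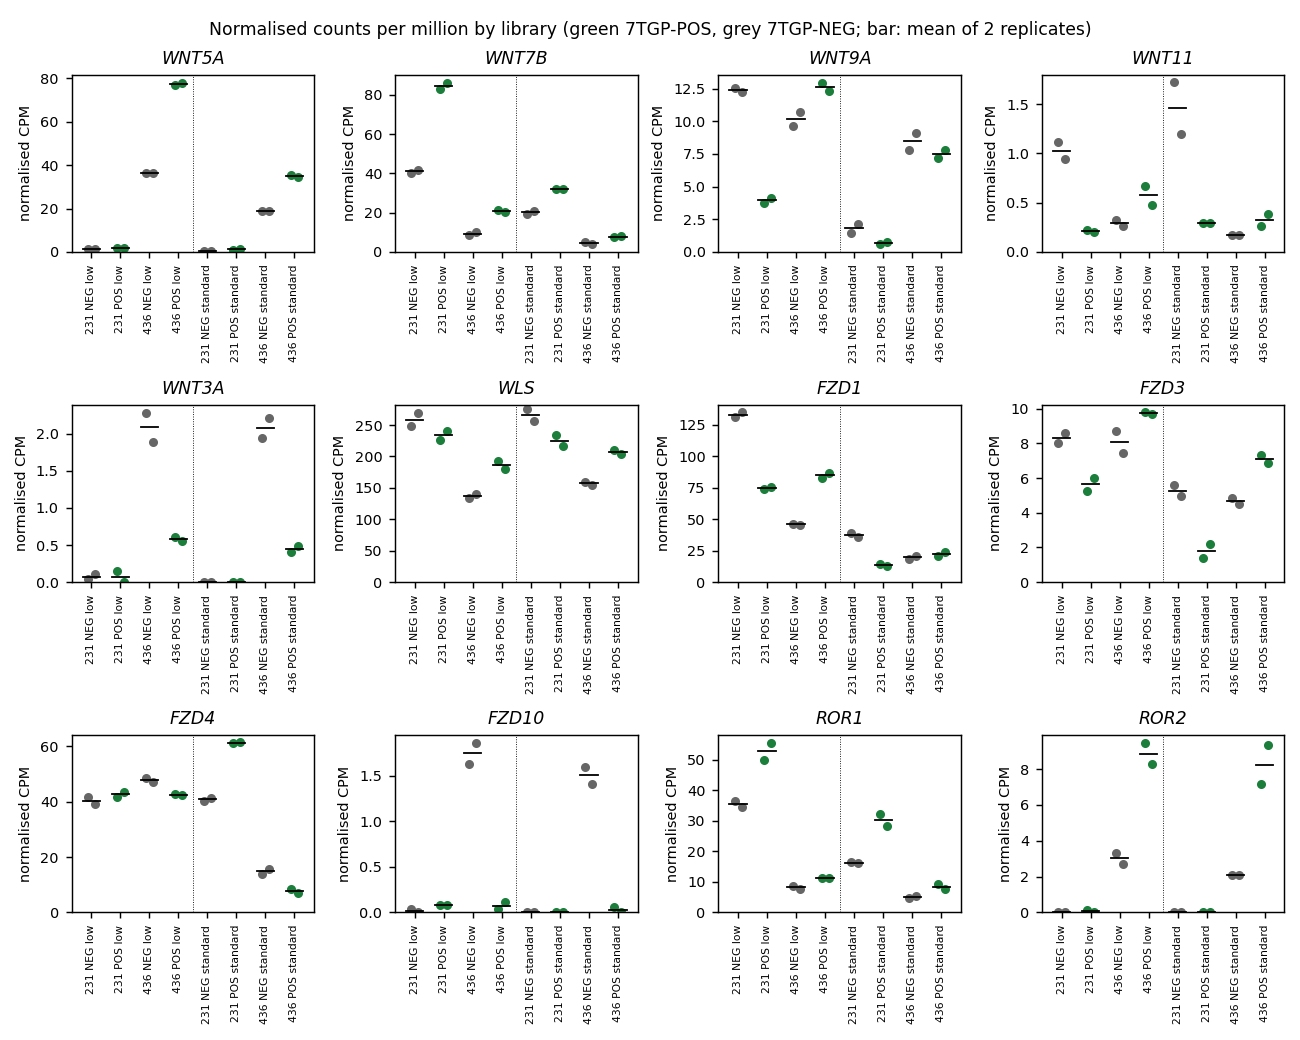
Normalised CPM of 12 members in each of the 16 libraries, with grey points for 7TGP-NEG, green points for 7TGP-POS, a bar at the mean of the 2 replicates, and a dotted line between serum conditions, which were normalised separately. WNT7B and ROR1 are higher in 7TGP-POS in every pair of groups, whereas WLS is lower in 7TGP-POS of MDA-MB-231 and higher in 7TGP-POS of MDA-MB-436.

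The ligand carrier WLS (chr1:68564156-68698803) differed in opposite directions in the cell lines. In MDA-MB-231 it was 248 and 269 CPM in 7TGP-NEG against 226 and 241 in 7TGP-POS in low serum (-0.15 ± 0.05, adjusted p = 0.023) and 275 and 256 against 235 and 216 in standard serum (-0.24 ± 0.07, adjusted p = 0.018). In MDA-MB-436 it rose from 134 and 140.1 to 193 and 180.0 CPM in low serum (0.44 ± 0.05, adjusted p = 2.6e-09) and from 159.6 and 155 to 209.8 and 203 CPM in standard serum (0.39 ± 0.07, adjusted p = 2.1e-04). The sublines did not overlap in any of these 4 pairs, although all 4 differences were below 2-fold. The difference between the lines was -0.59 ± 0.07, adjusted p = 1.3e-08 in low serum and -0.63 ± 0.10, adjusted p = 7.9e-05 in standard serum. The lower level in MDA-MB-231 no longer passed in low serum without 7TGP-NEG replicate 2 (-0.09, adjusted p = 0.37) or 7TGP-POS replicate 1 (-0.10, adjusted p = 0.17), nor in standard serum without 7TGP-NEG replicate 1 (-0.18, adjusted p = 0.22) or 7TGP-POS replicate 2 (-0.18, adjusted p = 0.16). The higher level in low serum MDA-MB-436 no longer passed in 2 of 11 alternatives, with a lowest value of 0.19. The difference between the lines passed in each of the 15 alternatives of either serum condition. An antisense gene, GNG12-AS1, overlaps WLS. PORCN, the acyltransferase, fell in MDA-MB-436 7TGP-POS, from 15.4 and 14.5 to 9.28 and 9.47 CPM in low serum (-0.68 ± 0.10, adjusted p = 9.2e-08) and from 23.1 and 21.1 to 14.8 and 15.2 in standard serum (-0.56 ± 0.09, adjusted p = 7.4e-05). In MDA-MB-231 PORCN fell in standard serum (-0.34 ± 0.09, adjusted p = 0.0081), though not without 7TGP-NEG replicate 2 (-0.30, adjusted p = 0.086) or 7TGP-POS replicate 1 (-0.28, adjusted p = 0.079), and did not pass in low serum (0.11 ± 0.09, adjusted p = 0.34).

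Among the Frizzled receptors, FZD10 (chr12:130647004-130650285) showed the largest reporter difference. MDA-MB-436 7TGP-NEG held 51 and 50 counts in low serum, with 55 and 57 in standard serum, whereas 7TGP-POS held 1 and 3 and 3 and 0. The depth-adjusted ratio of the summed counts was 24.7-fold (95% exact interval 9.36 to 92.5) higher in 7TGP-NEG in low serum and 43.9-fold (95% exact interval 14.6 to 216) in standard serum, intervals that cover counting error only. FZD10 was called in both serum conditions (adjusted p = 6.4e-10 and 9.5e-07), at a level of only 1.53 ± 0.0283 and 1.72 ± 0.120 TPM in 7TGP-NEG.

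FZD1 (chr7:90893748-90900641) fell in MDA-MB-231 7TGP-POS, from 131 and 135 to 74.3 and 75.7 CPM in low serum (-0.83 ± 0.05, adjusted p = 2.8e-16) and from 38.8 and 35.6 to 14.5 and 12.6 in standard serum (-1.46 ± 0.11, adjusted p = 6.9e-09). In MDA-MB-436 it rose in low serum, from 46.2 and 45.8 to 83.05 and 86.5 CPM (0.88 ± 0.06, adjusted p = 5.7e-17). It did not pass in standard serum, with 18.4 and 20.8 against 21.1 and 24.03 CPM (0.20 ± 0.10, adjusted p = 0.12). FZD3, a receptor known from planar cell polarity in axon growth, fell in MDA-MB-231, from 8.03 and 8.63 to 5.28 and 6.02 CPM in low serum (-0.56 ± 0.13, adjusted p = 5.3e-04) and from 5.60 and 4.94 to 1.37 and 2.18 in standard serum (-1.56 ± 0.20, adjusted p = 5.4e-06). In MDA-MB-436 it was higher in standard serum 7TGP-POS, with 4.84 and 4.49 against 7.32 and 6.85 CPM (0.60 ± 0.16, adjusted p = 0.0044), which no longer passed without 7TGP-NEG replicate 2 (0.54, adjusted p = 0.078). The FZD3 value in standard serum MDA-MB-231 was -0.67 on log2(TPM + 1), short of the fold threshold. FZD4, which also binds the non-WNT ligand Norrin, was higher in standard serum MDA-MB-231 7TGP-POS, with 40.4 and 41.4 against 61.1 and 61.4 CPM (0.58 ± 0.09, adjusted p = 8.1e-05). In standard serum MDA-MB-436 it was lower, with 13.9 and 15.7 against 8.53 and 7.03 CPM (-0.92 ± 0.11, adjusted p = 1.0e-06). In low serum MDA-MB-436 it also passed as lower by a smaller amount, at a mean of 48.0 CPM in 7TGP-NEG against 42.6 in 7TGP-POS. With 1 library left out, that log2 fold change ranged from -0.22 to -0.16. FZD4 no longer passed there in 1 of 11 alternatives, the fit without 7TGP-NEG replicate 1 (-0.16). FZD4 did not pass in low serum MDA-MB-231. The gene PRSS23 overlaps FZD4.

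FZD7 was lower in 7TGP-POS in all 4 comparisons, though below 2-fold in each. The log2 fold changes were -0.16 and -0.34 in MDA-MB-231 and -0.19 and -0.90 in MDA-MB-436 (low and standard serum). In standard serum MDA-MB-436 the levels were 21.7 and 24.04 against 11.2 and 13.3 CPM (adjusted p = 1.0e-06). The smallest of these differences, in low serum MDA-MB-231 (adjusted p = 0.045), no longer passed in 8 of 11 alternative fits, among them those without each of the 4 libraries in turn (adjusted p from 0.067 to 0.17). FZD7 did not pass in standard serum MDA-MB-231 without 7TGP-NEG replicate 1 (-0.32, adjusted p = 0.080) or 7TGP-POS replicate 2 (-0.28, adjusted p = 0.12), nor in low serum MDA-MB-436 without 7TGP-NEG replicate 1 (-0.20, adjusted p = 0.059) or 7TGP-NEG replicate 2 (-0.18, adjusted p = 0.083). FZD2 rose in low serum in both lines, at 0.31 ± 0.06, adjusted p = 4.2e-05 in MDA-MB-231 and 0.48 ± 0.07, adjusted p = 2.0e-07 in MDA-MB-436. FZD2 no longer passed there in 2 of 11 alternatives in each line, with lowest values of 0.11 and 0.23. It did not pass in standard serum, where the MDA-MB-436 7TGP-POS replicates stood apart at 8.02 and 13.00 CPM. FZD8 fell in low serum MDA-MB-231, from 53.7 and 53.2 to 40.3 and 31.8 CPM (-0.57 ± 0.09, adjusted p = 2.1e-05). FZD9 rose in low serum MDA-MB-436, from 7.92 and 7.69 to 11.2 and 11.7 CPM (0.55 ± 0.12, adjusted p = 2.6e-04). This FZD9 difference no longer passed in 2 of 11 alternatives, with a lowest value of 0.28. FZD6 was higher in standard serum MDA-MB-436 7TGP-POS (0.31 ± 0.08, adjusted p = 0.0032). Its value in standard serum MDA-MB-231 (-0.21 ± 0.08, adjusted p = 0.044) no longer passed in 6 of 11 alternatives, among them those without 7TGP-NEG replicate 1 (-0.15, adjusted p = 0.36), 7TGP-NEG replicate 2 (-0.27, adjusted p = 0.066) or 7TGP-POS replicate 2 (-0.16, adjusted p = 0.28). FZD5, at 2.28 to 3.25 TPM in MDA-MB-231 and 4.43 to 8.49 TPM in MDA-MB-436, did not pass in any reporter comparison.

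The co-receptors differed by less than 2-fold. LRP5 was lower in 7TGP-POS in low serum MDA-MB-231, with 522 and 518 against 407 and 391 CPM (-0.38 ± 0.05, adjusted p = 1.5e-08). It was also lower in standard serum MDA-MB-436, with 56.6 and 62.9 against 33.1 and 42.2 CPM (-0.67 ± 0.10, adjusted p = 8.1e-05). The other LRP5 comparisons did not pass. LRP6 passed in low serum MDA-MB-436 alone (-0.24 ± 0.05, adjusted p = 1.0e-04).

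ROR1 (chr1:64239688-64647181), a receptor tyrosine kinase-like protein that binds WNT5A, was higher in 7TGP-POS in all 4 comparisons. Its levels were 36.5 and 34.5 against 49.95 and 55.6 CPM in low serum MDA-MB-231 (0.57 ± 0.07, adjusted p = 8.0e-09) and 16.5 and 16.05 against 32.2 and 28.3 CPM in standard serum (0.89 ± 0.11, adjusted p = 6.7e-06). In MDA-MB-436 they were 8.66 and 7.76 against 11.3 and 11.1 CPM (0.45 ± 0.10, adjusted p = 2.1e-04) and 4.67 and 5.41 against 9.23 and 7.54 CPM (0.74 ± 0.13, adjusted p = 1.3e-04). The sublines did not overlap in any pair, and each difference was below 2-fold. In low serum ROR1 no longer passed in 1 of 11 alternatives in MDA-MB-231 and in 2 of 11 in MDA-MB-436. The lowest values were 0.34 and 0.16. In standard serum ROR1 passed in all 11 alternatives of each line. An antisense gene, ROR1-AS1, overlaps ROR1, and its reads cannot be told apart without the strand. Its paralog ROR2 (chr9:94325373-94712510) was found mainly in MDA-MB-436. There it rose from 3.34 and 2.71 to 9.44 and 8.28 CPM in low serum (1.54 ± 0.16, adjusted p = 4.9e-11) and from 2.06 and 2.11 to 7.17 and 9.33 CPM in standard serum (1.98 ± 0.19, adjusted p = 2.8e-07). On log2(TPM + 1) the low serum value of ROR2 was 0.91, short of the fold threshold. MDA-MB-231 held at most 4 ROR2 counts in a library. RYK rose in standard serum MDA-MB-436, from 75.8 and 77.4 to 113 and 102 CPM (0.48 ± 0.08, adjusted p = 4.0e-05). In low serum RYK passed in both lines at 0.19 and 0.13, but was slightly negative, without passing, when TPM replaced counts. It also did not pass in MDA-MB-231 without 7TGP-NEG replicate 2 (0.15, adjusted p = 0.11), nor in MDA-MB-436 without 7TGP-NEG replicate 1 (0.08, adjusted p = 0.36), 7TGP-POS replicate 1 (0.05, adjusted p = 0.54) or 7TGP-POS replicate 2 (0.13, adjusted p = 0.10).

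Whether the reporter difference of a member differed between the lines was tested as an interaction, the log2 fold change of MDA-MB-231 minus that of MDA-MB-436. In low serum 11 of 30 members passed the adjusted p alone, against 45.7% of all genes, and 4 were called, against 11.7%. In standard serum 13 passed, against 41.2%, and 6 were called, against 13.8%. WNT9A, WNT11 and FZD1 were called in both serum conditions, each lower in 7TGP-POS of MDA-MB-231 relative to MDA-MB-436. The values were -1.97 and -1.20 for WNT9A, -3.21 and -3.16 for WNT11, and -1.71 and -1.66 for FZD1. Without standard serum MDA-MB-231 7TGP-NEG replicate 2 the WNT9A value was -0.89, below the fold threshold. WNT10B (-1.44 ± 0.39, adjusted p = 0.0061), FZD3 (-2.17 ± 0.25, adjusted p = 2.1e-06) and FZD4 (1.51 ± 0.14, adjusted p = 1.4e-07) were called in standard serum. WNT10B in standard serum MDA-MB-231 had 25 and 26 counts in 7TGP-NEG against 11 and 18 in 7TGP-POS, which did not pass. On log2(TPM + 1) the values of WNT10B (-0.95) and WNT9A (-0.59) in standard serum and WNT11 in low serum (-0.95) were short of the fold threshold. WNT5B, at 0.90 in standard serum, was called at 1.03 without MDA-MB-436 7TGP-POS replicate 2, and WNT4, with 0 to 4 counts in MDA-MB-231, was called in standard serum without MDA-MB-231 7TGP-POS replicate 1 (adjusted p = 0.035). The remaining call in low serum was FZD10, for which no difference is given because the MDA-MB-231 libraries held 2 counts or fewer. For ROR1 no difference between the lines was detected (0.12 ± 0.12, adjusted p = 0.43 in low serum and 0.16 ± 0.17, adjusted p = 0.51 in standard serum).

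**Figure D4:**
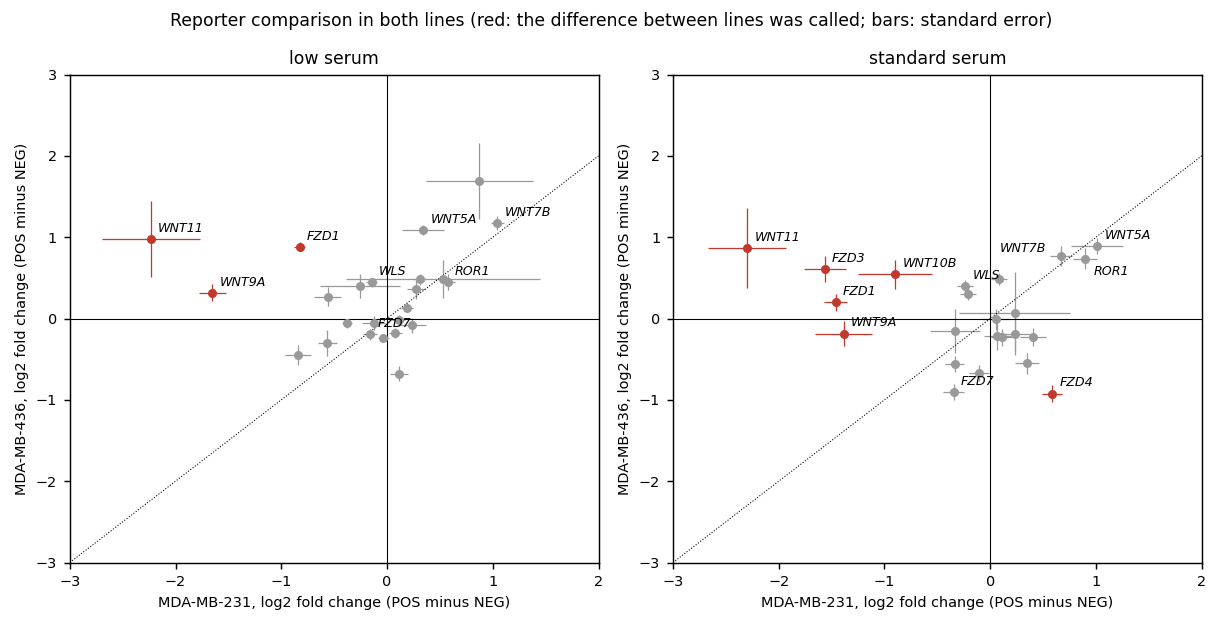
Log2 fold change (7TGP-POS minus 7TGP-NEG) in MDA-MB-231 on the x axis against MDA-MB-436 on the y axis, for low and standard serum, with standard error bars, red where the difference between lines was called, and a dotted line of equal change. Members with a group at 3 counts or fewer in each library are left out. WNT9A, WNT11 and FZD1 lie left of the line in both panels, and FZD4 lies below it in standard serum.

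More members were called between the lines than between sublines of a line. Averaged over sublines, 17 members were called in low serum. Of these, 7 had the greater level in MDA-MB-231 and 10 in MDA-MB-436, against 40.8% of all genes (19.4% higher and 21.4% lower). In standard serum 19 were called, 9 higher and 10 lower, against 46.8% (21.1% and 25.7%). With the adjusted p alone, 28 members passed in each serum condition, against 83.4% and 84.6% of all genes. Each line is a single line, so these differences describe the pair and not a class of tumours. The methods give a different culture medium for each line where the labels give a single one, so medium and line cannot be told apart. Called higher in MDA-MB-231 in both serum conditions were LRP5 (2.61 ± 0.04, adjusted p = 4.1e-41 in low serum and 3.15 in standard serum), FZD8 (3.07 and 3.40), ROR1 (2.17 and 1.76), WNT7B (2.08 and 2.08), WNT5B (1.99 and 1.69) and FZD2 (1.49 and 1.99). In standard serum alone, FZD4 (2.22, against -0.12 in low serum), WNT2B (1.70) and WNT11 (1.47) were also called higher. FZD6 was called in low serum at 1.01, but fell short of the fold threshold at 0.95 without MDA-MB-231 7TGP-POS replicate 2 and at 0.998 without MDA-MB-436 7TGP-NEG replicate 2. FZD3, at -0.90 in standard serum, was called at -1.10 without MDA-MB-231 7TGP-POS replicate 2.

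Lower in MDA-MB-231 were WNT5A (-4.97 ± 0.07, adjusted p = 2.7e-40 in low serum and -5.01 in standard serum) and WNT10B (-3.24 and -2.97), both called in both serum conditions. WNT3 was called lower in low serum (-1.66, against -0.87 in standard serum), and WNT9A in standard serum (-2.84, against -0.70 in low serum). For the members at or near 0 in MDA-MB-231, ratios were taken from depth-adjusted summed counts. In low serum, FZD9 was 251-fold (95% exact interval 97.8 to 923) higher in MDA-MB-436, WNT6 259.9-fold (95% exact interval 71.6 to 2151) and ROR2 104-fold (95% exact interval 47.3 to 283). WNT3A was 17.6-fold (95% exact interval 8.72 to 41.5) higher, WNT4 18.9-fold (95% exact interval 10.6 to 36.99) and FZD10 19.1-fold (95% exact interval 7.92 to 60.00), and WNT7A, at 7 counts over MDA-MB-231, was 4.16-fold (95% exact interval 1.80 to 11.2) higher. The WNT7A call was lost, with adjusted p of 0.060, 0.061, 0.065 and 0.10, without MDA-MB-231 7TGP-NEG replicate 2, MDA-MB-231 7TGP-POS replicate 1, MDA-MB-436 7TGP-NEG replicate 1 or MDA-MB-436 7TGP-POS replicate 1. In standard serum, with 0 counts over the 4 MDA-MB-231 libraries and a floor of 3 counts over them, MDA-MB-436 exceeded MDA-MB-231 in ROR2 by at least 223-fold, FZD9 at least 167-fold, WNT3A at least 49.8-fold, FZD10 at least 29.4-fold, WNT6 at least 26.6-fold and WNT7A at least 10.5-fold. The FZD10 call between lines was lost without 1 MDA-MB-436 7TGP-POS library in each serum condition (replicate 2 in low serum, adjusted p = 0.079, and replicate 1 in standard serum, adjusted p = 1.00). In standard serum WNT4, with 161 summed counts in MDA-MB-436 against 5 in MDA-MB-231, was 24.7-fold (95% exact interval 10.4 to 77.05) higher in MDA-MB-436. The intervals cover counting error only, and the at-least values carry none. ROR2 varied both between the lines and between the MDA-MB-436 sublines. The FZD10 ratios rest on MDA-MB-436 7TGP-NEG, with 50 to 51 counts per library in low serum and 55 to 57 in standard serum. MDA-MB-436 7TGP-POS held 1 to 3 FZD10 counts in low serum, against 2 in each MDA-MB-231 7TGP-POS library. In standard serum it held 0 to 3, against 0.

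The make-up of the Frizzled transcripts was given as the share of the summed Frizzled TPM, the mean of the group. In low serum MDA-MB-231 7TGP-NEG, FZD2 (25.7%) and FZD1 (25.4%) led and their replicate ranges overlapped, followed by FZD6 (19.4%), FZD8 (13.9%) and FZD7 (9.43%). In 7TGP-POS of the same line FZD2 was at 34.9% and FZD1 at 15.7%. In standard serum the FZD1 share was 10.8% in 7TGP-NEG and 4.14% in 7TGP-POS, behind FZD6 (28.6% and 25.9%) and FZD2 (26.1% and 32.2%). In low serum MDA-MB-436, FZD6 led in 7TGP-NEG (21.4%) and FZD1 in 7TGP-POS (28.4%). FZD6 led in both standard serum sublines of MDA-MB-436 (34.4% and 43.2%). FZD1 and FZD2 overlapped in low serum 7TGP-NEG of this line, and FZD2 and FZD7 in standard serum 7TGP-NEG. In standard serum 7TGP-POS of MDA-MB-436, FZD2 (15.3%) and FZD1 (14.98%) overlapped. The order depends on gene length, since with counts per kilobase of merged exons FZD6 replaced FZD2 as the highest Frizzled in 3 of the 4 MDA-MB-231 groups, while the leading gene of the 4 MDA-MB-436 groups was the same. The summed Frizzled TPM was 196 to 271 in MDA-MB-231 libraries and 128 to 179 in MDA-MB-436 libraries.

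**Figure D5:**
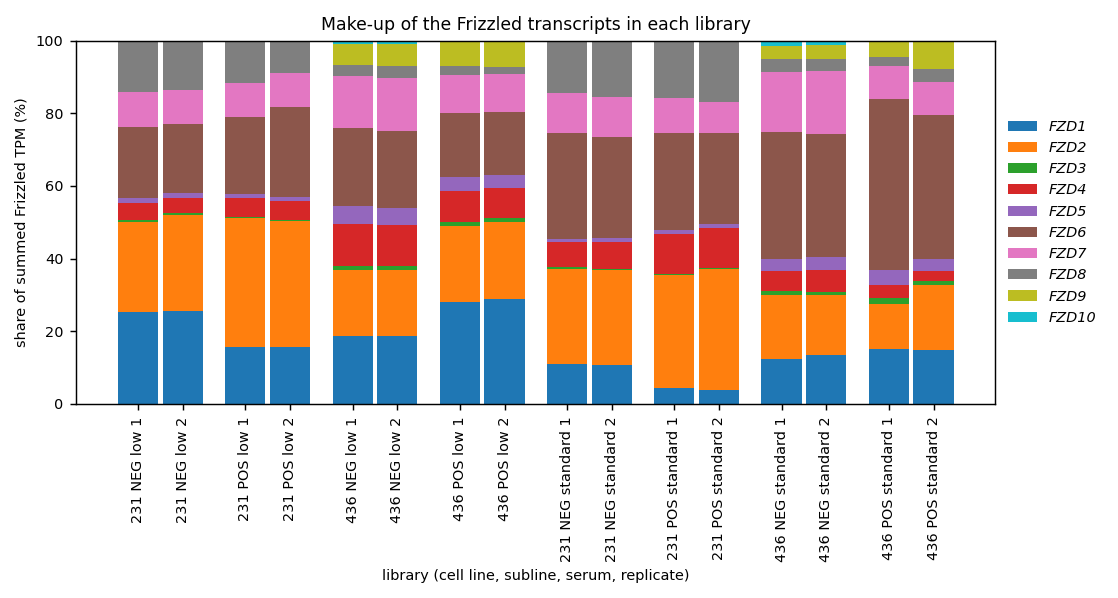
Share of each Frizzled gene in the summed Frizzled TPM of a library, in percent, with 1 stacked bar per library and replicates side by side. The FZD1 segment is smaller in 7TGP-POS than in 7TGP-NEG of MDA-MB-231 in both serum conditions, and FZD9 is visible in MDA-MB-436 only.

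Other genes of the pathway were counted from hand-written lists, again as those past the adjusted p, with the shares of all genes given above as the background. Of the antagonists (11 in low serum and 12 in standard serum of 17 tested), those that passed in MDA-MB-231 were 4 higher and 1 lower in low serum and 2 higher and 2 lower in standard serum. The MDA-MB-436 antagonists that passed were 3 higher and 2 lower, and 6 higher and 1 lower, in the same order. Only 6 of the 11 antagonists (low serum) and 5 of the 12 (standard serum) exceeded 3 counts in a library of each MDA-MB-231 subline. The remaining antagonists cannot be taken as unchanged in that line where they did not pass. Of the receptor partners and turnover factors (15 of 15 tested), those that passed in MDA-MB-231 were 4 higher and 4 lower in low serum and 3 higher and 4 lower in standard serum. The MDA-MB-436 receptor partners and turnover factors that passed were 6 higher and 3 lower, and 1 higher and 5 lower, in the same order. Of the R-spondins (4 of 4 tested), those that passed in MDA-MB-231 were 0 higher and 0 lower in low serum and 0 higher and 0 lower in standard serum. The MDA-MB-436 R-spondins that passed were 1 higher and 1 lower, and 1 higher and 0 lower, in the same order. In MDA-MB-231, 1 R-spondin (low serum) and 0 (standard serum) exceeded 3 counts in a library of each subline. The absence of passes there therefore does not show that the R-spondins were unchanged. Of the cytoplasmic transducers and destruction complex genes (13 of 13 tested), those that passed in MDA-MB-231 were 2 higher and 5 lower in low serum and 0 higher and 1 lower in standard serum. The MDA-MB-436 cytoplasmic transducers and destruction complex genes that passed were 4 higher and 4 lower, and 5 higher and 3 lower, in the same order. Of the nuclear factors (8 of 8 tested), those that passed in MDA-MB-231 were 2 higher and 3 lower in low serum and 0 higher and 2 lower in standard serum. The MDA-MB-436 nuclear factors that passed were 3 higher and 3 lower, and 3 higher and 2 lower, in the same order. Of the planar cell polarity genes (8 of 8 tested), those that passed in MDA-MB-231 were 0 higher and 3 lower in low serum and 1 higher and 3 lower in standard serum. The MDA-MB-436 planar cell polarity genes that passed were 5 higher and 2 lower, and 3 higher and 2 lower, in the same order.

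In MDA-MB-436, the antagonist DKK1, which binds LRP5 and LRP6, rose from 24.4 and 22.5 to 102 and 100.5 CPM in low serum (2.11 ± 0.06, adjusted p = 7.9e-29) and from 15.8 and 13.97 to 51.8 and 50.6 in standard serum (1.78 ± 0.08, adjusted p = 6.2e-12). DKK2, of the same family, rose from 24 and 19 to 142 and 120 counts (2.63 ± 0.24, adjusted p = 1.4e-12) and from 9 and 16 to 76 and 50 (2.08 ± 0.35, adjusted p = 1.1e-04). The polarity genes PRICKLE1 and PRICKLE2 rose as well, PRICKLE1 with a log2 fold change of 2.78 ± 0.10, adjusted p = 8.7e-25 in low serum and 1.96 ± 0.10, adjusted p = 4.0e-11 in standard serum. For PRICKLE2 the values were 1.44 ± 0.09, adjusted p = 1.7e-17 and 2.37 ± 0.14, adjusted p = 1.6e-10. NKD2, a Dishevelled-binding inhibitor, fell from 25.3 and 25.04 to 4.09 and 4.22 CPM (-2.60 ± 0.12, adjusted p = 4.4e-22) and from 16.5 and 21.5 to 3.82 and 6.14 (-1.94 ± 0.27, adjusted p = 0.0041). In MDA-MB-231, NDP, which encodes the FZD4 ligand Norrin, fell from 7.96 and 6.96 to 0.862 and 1.06 CPM in low serum (-2.95 ± 0.21, adjusted p = 8.6e-15), and in standard serum from 104 and 117 counts to 1 and 1, a ratio of 117-fold (95% exact interval 32.1 to 975). LGR6, an R-spondin receptor, rose from 13 and 9 to 165 and 145 counts in low serum (3.87 ± 0.25, adjusted p = 2.7e-16) and from 11 and 5 to 19 and 22 in standard serum (1.26 ± 0.46, adjusted p = 0.045). The atypical cadherin CELSR2 fell from 50.6 and 43.8 to 24.6 and 21.7 CPM (-1.03 ± 0.08, adjusted p = 2.3e-12) and from 48.03 and 41.8 to 12.6 and 11.5 (-1.90 ± 0.11, adjusted p = 1.8e-10).

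The replicates of standard serum MDA-MB-436 7TGP-POS stood further apart than those of the other groups. Over members with more than 3 counts in both replicates, the median absolute log2 ratio of replicate 2 to replicate 1 was 0.27 in this group and 0.07 to 0.16 in the other 7. The ratio rose with the GC content of the longest transcript, with Pearson's r of 0.54 over 29 members of the same 2 libraries, given as a description. A correlation of about that size and opposite sign (-0.51 over 23 members) was found in low serum MDA-MB-231 7TGP-POS, whose replicates lay close together. WNT6 (70.4% GC) and FZD9 (68.5% GC) were higher in replicate 2, by 1.68 and 1.02 on the log2 scale. The part of GC content in the reporter results was not tested. Without 7TGP-POS replicate 1, the count of called members in standard serum MDA-MB-436 was 6 in place of 4, with WNT6 at 1.36, FZD9 at 1.11 and FZD4 at -1.09 gained and WNT7A lost. Without 7TGP-POS replicate 2 the count was 5, with FZD7 at -1.03 gained. FZD4 was also called, at -1.02, without 7TGP-NEG replicate 1. WNT3A, ROR2 and FZD10 were called in each of these fits.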

How the data were processed

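RNA-Seq was analysed for 16 libraries of the MDA-MB-231 and MDA-MB-436 sublines, grouped by the sample labels into 8 groups of 2 replicates. The deposited counts per gene were made by the authors with STAR (2.6.1a per the labels) on hg19 and Gencode v19, and the TPM values were also deposited by the authors. Of 57820 genes, 55538 identifiers were matched to symbols of the GRCh37 Gencode annotation, and 19404 protein-coding genes were kept. Genes with at least 10 summed counts were tested with edgeR 4.0.16 (R 4.3.3), using TMM and the robust quasi-likelihood test over the 4 groups of each serum condition, with Benjamini-Hochberg adjusted p over all tested genes. Fold changes are on the log2 scale. Each standard error was derived from the test, as the absolute log2 fold change over the square root of its F statistic. Members and lists were chosen with earlier results of these data known. Members with a mean of 1 TPM in a group, or called, were named, and other pathway genes, at most 8, when called in 1 direction in both serum conditions of a line. DESeq2 1.42.0, limma 3.58.1 on log2(TPM + 1) and log2(TPM + 0.1), other filters and scaling, a replicate block and leaving out each library were alternatives. Ratios of summed counts, taken for genes at or near 0 in 1 group, carry exact binomial 95% intervals, which cover counting error only. Where the lower group held no count, a floor of 3 counts gave an at-least value without an interval. Whether the strand entered the counting is not given in the sources used here.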

Additional observations from a re-analysis of the deposited data

Results flagged for a closer look

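These members had a reporter difference (7TGP-POS minus 7TGP-NEG) that differed between the cell lines by edgeR's quasi-likelihood test of the difference itself, with the log2 value of MDA-MB-231 minus MDA-MB-436 given for each. In low serum the difference was -1.97 for WNT9A, -3.21 for WNT11 and -1.71 for FZD1. In standard serum it was -1.20 for WNT9A, -3.16 for WNT11 and -1.66 for FZD1. Standard serum also held -1.44 for WNT10B, -2.17 for FZD3 and 1.51 for FZD4.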

How the results depend on the processing

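Of 2824 member values recomputed under the alternatives, 2667 kept their side of the adjusted p threshold. These include values that passed in neither fit, whose direction was not compared. With the direction kept, 116 lost and 33 gained a pass, and 8 reversed with a pass in at least 1 of the fits compared. The counts of called members were 3 (MDA-MB-231 low serum), 5 (MDA-MB-231 standard serum), 8 (MDA-MB-436 low serum), 4 (MDA-MB-436 standard serum), 4 and 6 (difference between lines, low and standard serum) and 17 and 19 (between lines, low and standard serum). With the adjusted p alone they were 14, 14, 22, 17, 11, 13, 28 and 28. Requiring a mean of 1 CPM gave 4 in MDA-MB-436 low serum, 1 in MDA-MB-436 standard serum and 2 for the difference between lines in low serum, with fewer genes tested. With limma on log2(TPM + 1) the counts were 3 in MDA-MB-436 low serum and 2 in MDA-MB-231 standard serum, and also 2 in MDA-MB-231 low serum, where WNT7B and WNT11 lost and FZD1 gained a call. The median log2 fold change of all genes in that fit was -0.13 in low serum MDA-MB-231 and -0.15 in low serum MDA-MB-436. On log2(TPM + 0.1) they were 5 in MDA-MB-436 low serum and 10 for the difference between lines in standard serum. The cause was not tested. Leaving out 1 library gave 3 to 3, 4 to 6, 6 to 8 and 4 to 6 for the reporter comparisons, 4 to 4 and 5 to 7 for the difference between lines, and 16 to 17 and 18 to 20 between lines, in the order above. All values that reversed did so with limma on TPM. With both offsets these were RYK in MDA-MB-231 low serum (-0.013 and -0.014) and MDA-MB-436 low serum (-0.112 and -0.114), and WNT2B between lines in low serum (-0.032 and -0.070). On log2(TPM + 1) alone, ROR2 reversed for the difference between lines in low serum (-0.87) and WNT5A for it in standard serum (-0.62). Low serum MDA-MB-231 held at most 4 ROR2 counts in a library. Mean WNT5A in standard serum MDA-MB-231 was 0.28 TPM in 7TGP-NEG and 0.58 TPM in 7TGP-POS. The cause of the reversals was not tested.

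The replicate block, with the replicate number as a term, gave 3, 5, 8, 4, 4, 6, 17 and 19 called members, the same counts as without it. With it, 1 member value lost and 3 gained a pass. Deviations of same-numbered libraries correlated between groups at -0.21 to 0.08 in low serum and at -0.05 to 0.40 in standard serum, where 5 of 6 pairs of groups were over 0.1. The labels do not say that a number marks a shared batch, and with 2 replicates the numbers were not taken to pair the samples. Crossed numbers in MDA-MB-436 low serum also gave 8 called members. With 7TGP-NEG sublines only, 17 and 20 members were called between the lines in low and standard serum.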
